A study of Mus musculus with 2 samples.

Results

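The genes described here are the protein-coding genes of the mouse major histocompatibility complex that carry an H2- symbol. They were chosen by symbol and gene type alone: 34 of the 22028 protein-coding genes in the gene tables qualified, and all 34 lie on chromosome 17. A further 11 H2- symbols belong to pseudogenes and were kept apart. RNA came from the gastrocnemius, the large calf muscle, of 2 male B6CASTF1/J mice aged 36 days, an F1 cross of C57BL/6 with CAST obtained from The Jackson Laboratory. No treatment or engineered allele is named in the labels, so there was 1 group with n = 2, no contrast and no p-value. Both biosamples carry 1 donor entry but separate mouse numbers, and the spread between them can be partly technical.

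Class I molecules are heavy chains that pair with beta-2 microglobulin and show peptides made inside the cell to cytotoxic T cells. Nearly all nucleated cells carry them, although skeletal muscle fibres are known for carrying little. Class II molecules pair an alpha with a beta chain, load peptides taken up from outside the cell, and are carried mainly by macrophages, dendritic cells and B cells. Both classes are among the most variable genes between mouse strains, and several genes of class I resemble each other closely.

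Each library held 36952277 (replicate 1) and 38754338 (replicate 2) expected counts (reads assigned to genes, fractions of reads included). A count of 0 allows up to 3 reads, or 0.0812 and 0.0774 CPM (counts scaled to the library total). TPM, the main unit, is abundance per transcript length scaled to a fixed total over all features, so it allows levels of different genes to be compared. Each library also had a second transcript table, from a separate quantification of the same reads, which was summed per gene. Nuclear protein-coding genes held 40.2% and 42.2% of TPM in the gene tables and 68.0% and 66.4% in the second tables. Deposited TPM of the 2 quantifications is therefore not on the same scale. Muscle fibre markers were high in both animals, with skeletal actin Acta1 at 22669 and 25019 TPM and the fast light chain Mylpf at 19627 and 18898.

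The likeness of some members bears on their values below, because a read that lies wholly in a stretch common to 2 genes cannot be placed by its letters. H2-K1 and H2-D1, the 2 classical class I heavy chains that C57BL/6 mice carry, show both extremes. Their coding sequences in GENCODE M21 (transcripts H2-K1-205, 1083 bases, and H2-D1-202, 1089 bases) were identical at 92.0% of 1077 aligned bases. The longest run without a difference, 91 bases, is shorter than a read in these libraries, at 100 bases. This run lies in exon 4 of both genes, which encodes the membrane-proximal alpha-3 domain. It covers chr17:33997343-33997433 on the minus strand for H2-K1 and chr17:35265911-35266001 on the plus strand for H2-D1 (mm10):
Both genes: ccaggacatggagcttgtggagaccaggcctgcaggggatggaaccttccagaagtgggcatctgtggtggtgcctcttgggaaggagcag

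The 100 coding bases that differ most join the end of exon 2 to the start of exon 3, which encode the domains that form the peptide groove. There 18 bases differ, shown in capitals. The genome span, intron included, is chr17:33999457-33999743 on the minus strand for H2-K1 and chr17:35263639-35263928 on the plus strand for H2-D1:
H2-K1: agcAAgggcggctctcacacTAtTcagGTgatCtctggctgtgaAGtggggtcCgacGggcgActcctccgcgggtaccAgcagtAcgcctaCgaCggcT
H2-D1: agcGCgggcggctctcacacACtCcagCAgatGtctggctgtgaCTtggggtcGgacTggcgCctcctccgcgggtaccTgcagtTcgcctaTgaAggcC
These are reference sequences of C57BL/6, and the CAST allele of each gene was not analysed here.

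The classical class I heavy chains were the most abundant antigen-presenting members. H2-D1 (ENSMUSG00000073411.11, chr17:35262730-35267499, plus strand) stood at 15.5 TPM in replicate 1 and 15.8 in replicate 2, from 879 and 885 expected counts. Its mean was 15.7 ± 0.233 TPM (SD, n = 2), and it ranked 2701st of all protein-coding genes. H2-K1 (ENSMUSG00000061232.16, chr17:33996017-34000347, minus strand) stood at 16.0 and 13.3 TPM, from 473 and 381 expected counts, with a mean of 14.7 ± 1.88. H2-K1 was above H2-D1 in replicate 1 and below it in replicate 2, and their deposited credibility intervals overlapped in each animal, so the order of the pair is not set by these data. Both together summed to 31.5 and 29.2 TPM, which was 789-fold ± 97.7 lower than Acta1 alone.

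The TPM of H2-K1 rested on fewer reads than that of H2-D1. The ratio of H2-K1 to H2-D1 was 0.937 ± 0.134 in TPM but 0.484 ± 0.0768 in expected counts. A 457-base transcript annotated as a retained intron, H2-K1-215, held 45.9% and 45.4% of the gene's TPM in the first transcript tables, on 82.9 and 68.6 of its expected counts. In the second transcript table it was at 0 in both animals. Of its 457 bases, 410 also lie in exons of the coding transcript H2-K1-205, so that stretch does not tell the 2 forms apart. Over protein-coding transcripts alone, H2-K1 came to 8.07 and 6.67 TPM and H2-D1 to 15.1 and 15.2 in the first tables, a ratio of 0.486 ± 0.0680. The second table gave 18.4 and 15.5 TPM for H2-K1 and 20.97 and 19.81 for H2-D1, a ratio of 0.829 ± 0.0677. H2-D1 was thus the higher coding messenger in both animals and both tables, and the size of the gap depended on the table. H2-D1 itself was held mostly by 1 form, H2-D1-202, at 87.3% and 85.3% of its TPM.

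**Figure D1:**
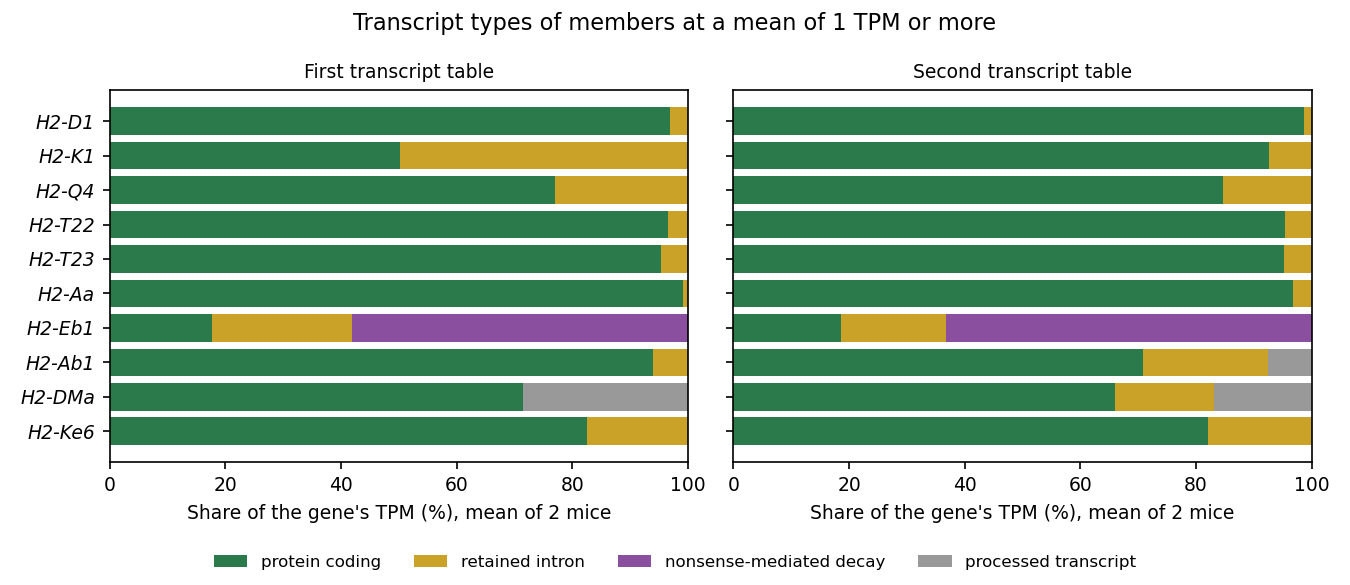
Share of each gene's TPM held by each annotated transcript type, in percent and as the mean of 2 mice, for the 10 members at a mean of 1 TPM or more; the left panel is the first transcript table and the right panel the second. Retained-intron forms take nearly as much of H2-K1 as protein-coding forms on the left and little on the right, and H2-Eb1 is held mostly by a form annotated for nonsense-mediated decay in both.

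Nonclassical class I genes of the T region encode less variable molecules with narrower tasks. H2-T22, a ligand of some gamma-delta T cells, stood at 2.88 and 3.23 TPM (4.13 and 4.24 in the second table). H2-T23 encodes Qa-1, which shows leader peptides of other class I chains to an inhibitory receptor of natural killer cells, and stood at 2.68 and 3.36 TPM. Their order was opposite in the 2 animals in the gene table, while in the second table H2-T23, at 4.52 and 4.99 TPM, was above H2-T22 in both, so their order depended on the table. H2-T24 was lower, at 0.68 and 0.85 TPM (1.00 and 1.31 in the second table). H2-T3, the thymus leukaemia antigen of intestinal epithelium, had 0 counts in both gene tables and 0 and 2.00 estimated counts in the second tables.

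Among the 6 Q region genes, H2-Q4 was the highest, at 1.54 and 1.44 TPM (3.41 and 2.38 in the second table). H2-Q7, which encodes the lipid-anchored Qa-2 antigen, was at 0.28 and 0.25 TPM. The lowest in the gene table, H2-Q10, a chain secreted by liver, was at 0.02 and 0.04. In the second table H2-Q10 was at 0.18 and 0.23 TPM, above H2-Q1 and H2-Q2. The 6 together gave 2.76 and 2.07 TPM. Of the 12 M region genes, 9 had 0 expected counts in both libraries, among them all of the M10 genes, which are known from the vomeronasal organ. H2-M3, which presents formylated peptides of bacteria and mitochondria, was the highest of the 12 at 0.38 and 0.33 TPM.

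In sum, class II genes were lower than class I, although the 3 detected alpha and beta chains were each above the Q and M region genes in both tables. H2-Aa, the alpha chain of the A molecule, stood at 2.90 and 2.81 TPM, and its partner H2-Ab1 stood at 2.33 and 2.67. H2-Eb1, the beta chain of the E molecule, stood at 2.72 and 2.84 TPM. H2-Aa and H2-Eb1 do not differ beyond their spread. H2-Ab1 was the lowest of the 3 in both gene tables but the highest in both second tables (5.85 and 5.21 TPM, against 5.45 and 4.55 for H2-Aa and 4.72 and 3.87 for H2-Eb1), so its place in the order depended on the table. Each chain rested on 82 to 95 expected counts per library. The other beta chain, H2-Eb2, had 0 counts in both libraries.

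Both quantifications placed most of the H2-Eb1 signal outside its coding forms, on 86 and 84 expected counts in the gene table. H2-Eb1-205, annotated for nonsense-mediated decay, held 52.8% and 63.4% of its TPM in the first tables and 66.4% and 60.2% in the second. Coding forms of H2-Eb1 came to 0.56 and 0.42 TPM in the first tables, against 2.89 and 2.78 for H2-Aa. In the second table they came to 0.603 and 0.948, against 5.27 and 4.42. Single coding forms were unsteady in the first tables: H2-Eb1-203 had 21.99 and 0 expected counts, and H2-Eb1-201 had 4 and 14.14. How much sequence the forms of H2-Eb1 share was not examined, so the split between them is uncertain.

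The peptide exchange genes of class II were below these 3 chains in the gene table. H2-DMa and H2-DMb1 encode chains of H2-DM, which removes the invariant chain's remnant from the class II groove. H2-DMa stood at 2.24 and 1.46 TPM (63 and 43 counts) and H2-DMb1 at 0.68 and 0.47. H2-DMb2 was at 0.12 and 0.14 TPM. H2-O, the inhibitor of H2-DM known from B cells, had H2-Ob at 0.07 and 0.11 TPM and H2-Oa at 0 counts in both.

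H2-Ke6 carried the highest value of any member, at 20.0 and 22.5 TPM (38.3 and 35.6 in the second table). It presents no antigen: its other name is Hsd17b8, and it encodes a hydroxysteroid dehydrogenase of mitochondrial fatty acid synthesis that lies within the complex. It was left out of every class I and class II sum below. Of the 31-base words in its transcripts, 76.1% also occur in Gm20427, a noncoding gene annotated over it, which stood at 0.18 and 0.23 TPM in the gene table and 3.69 and 4.45 in the second.

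**Figure D2:**
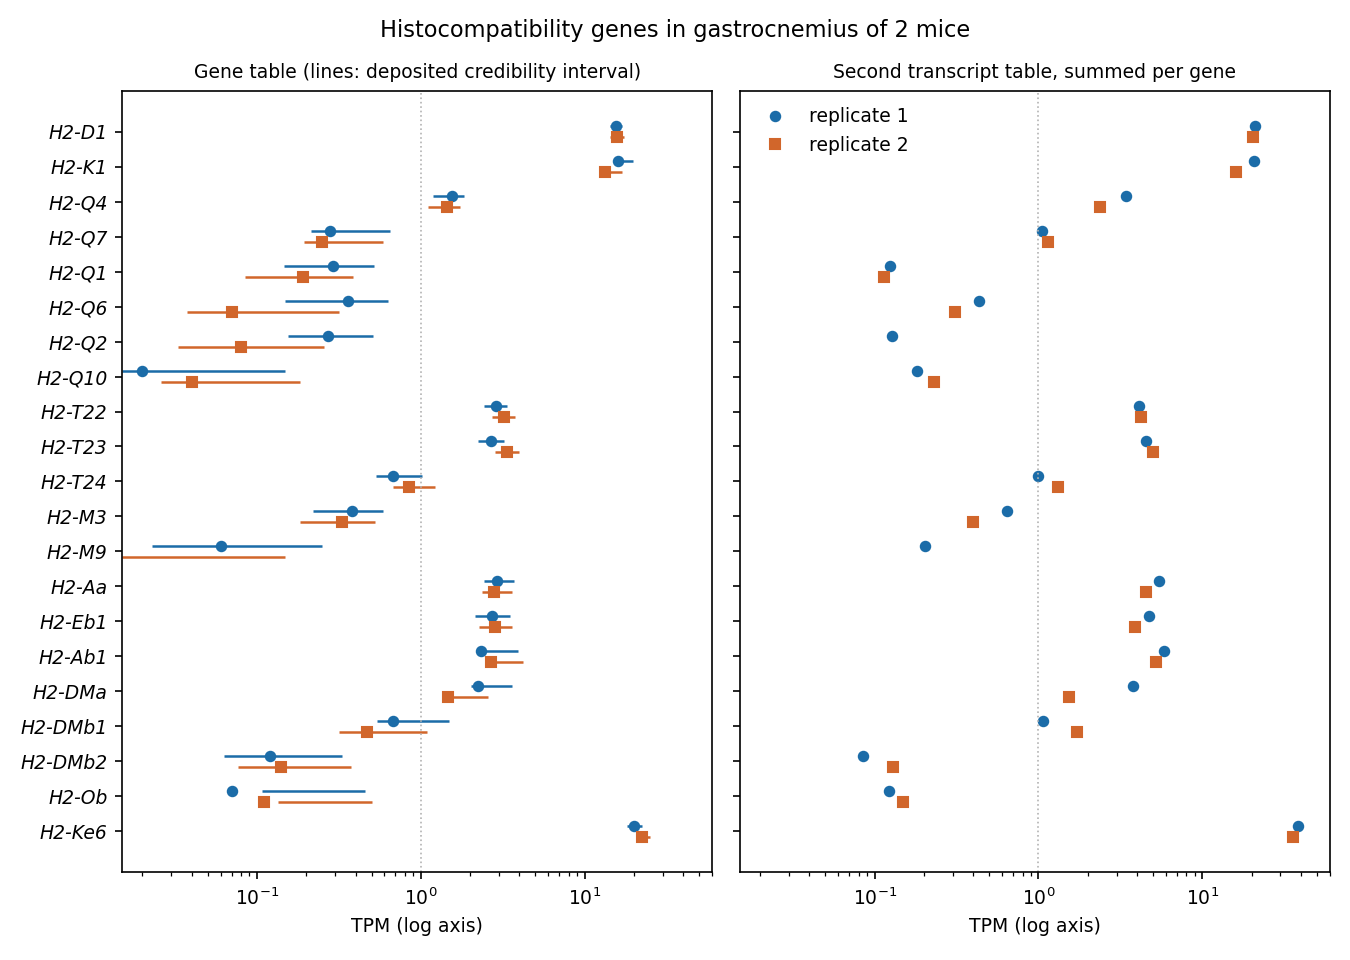
TPM on a log axis of the members with a mean of at least 0.1 TPM in either table, for replicate 1 (circles) and replicate 2 (squares); lines in the left panel are the deposited credibility intervals, cut at the edge of the axis, and values of 0 are not drawn. The classical chains H2-D1 and H2-K1 and the unrelated H2-Ke6 lie above 10 TPM, and the other members lie below 4 TPM in the gene table.

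Summed over roles, the 24 class I members came to 40.9 and 39.0 TPM (40.0 ± 1.34) and the 9 class II members to 11.1 and 10.5 (10.8 ± 0.396). Class I reads were 49.6 CPM in replicate 1 (Wilson 95% interval 47.4 to 51.9) and 45.7 in replicate 2 (43.6 to 47.9). Class II reads were 9.77 CPM (8.81 to 10.8) and 8.72 (7.84 to 9.70). These intervals cover counting error only. Class I exceeded class II 3.71-fold ± 0.0123 in TPM, and 2.87-fold ± 0.198 in the second table. The classical pair made up 75.8% ± 1.59 of class I TPM. In all, 10 of the 34 members reached 1 TPM in both libraries, against 45.6% of all protein-coding genes.

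Over all transcript forms, the light chain of class I stood close to the sum of its classical heavy chains and below the sum of all class I members. B2m, beta-2 microglobulin, stood at 34.4 and 30.7 TPM, and its ratio to the summed classical heavy chains was 1.07 ± 0.0287 (1.09 ± 0.00681 in the second table). For class II, Cd74, the invariant chain that guards the groove until peptide loading, stood at 8.76 and 7.67 TPM. Its ratio to the summed alpha and beta chains was 1.01 ± 0.127, and 0.784 ± 0.0414 in the second table. These sums count coding and other forms alike. The gene-table sum for class I includes H2-K1-215, at 7.33 and 6.05 TPM, and the class II sums include all forms of H2-Eb1. Ratios to coding transcripts alone were not taken.

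The genes that prepare class I peptides were uneven in level. All 8 genes of peptide loading and transport were detected in both animals. The chaperones Calr, Canx and Pdia3, which serve the whole secretory pathway, were highest, at 68.9 ± 6.10, 34.8 ± 5.49 and 18.0 ± 1.51 TPM. Tap1 and Tap2 form the peptide pump of the endoplasmic reticulum, and Tap1 was the lowest of the 8 at 0.45 and 0.66 TPM, with Tap2 at 2.13 and 1.97. Both were singled out for their role after the values were seen.

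The immunoproteasome, which replaces catalytic subunits of the standard proteasome under interferon-gamma, was far below its standard counterparts. Psmb8 was at 0.98 and 1.43 TPM, 56.1-fold ± 11.5 lower than Psmb5, whose place it takes. Psmb10 was at 6.96 and 6.37 TPM, 16.9-fold ± 1.69 lower than Psmb7. Psmb9, singled out after its values were seen, was at 0.12 and 0.42 TPM, where Psmb6 stood at 94.6 and 98.1. The activator subunits Psme1 (21.2 and 28.2 TPM) and Psme2 (20.3 and 22.4) were higher than the 3 immunoproteasome subunits. Of the 4 genes of class II chaperoning and cleavage, the proteases and reductase Lgmn and Ifi30 stood at 12.3 and 11.2 TPM and at 6.43 and 5.02.

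The 2 master regulators of these genes were among the lowest of their list. Nlrc5, the coactivator of class I promoters, was at 0.10 and 0.23 TPM, and Ciita, that of class II promoters, was at 0.08 and 0.09. Both were singled out for their role. The general factors of the same promoters were higher: Nfyc and Nfyb, subunits that bind the CCAAT box, stood at 14.5 ± 1.24 and 12.6 ± 0.354 TPM, and Irf2 at 11.1 ± 0.0354. Rfx5, a subunit of the factor that binds the X box, had the largest ratio between the animals among genes of this list at a mean of 1 TPM or more, at 1.25 and 2.29 TPM. In the second table it stood at 3.09 and 3.39.

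Interferons themselves were listed at 0, with no count for Ifng or Ifnb1 in either library. Their receptors were present, led by Ifngr2 at 25.5 and 23.6 TPM and Ifngr1 at 15.9 and 11.4, and Ifnar2 had the largest ratio between the animals at 4.99 and 2.87. Of 17 interferon response genes only 4 reached 1 TPM in both libraries, with the GTPases Gbp7 (7.35 and 7.74), Irgm1 (2.99 and 3.54) and Igtp (1.93 and 2.70) the highest. Among MHC-like genes with other names, Fcgrt, the neonatal Fc receptor that also binds beta-2 microglobulin, was the highest at 17.7 and 16.2 TPM. It was followed by the iron regulator Hfe (9.24 and 10.9) and the protein C receptor Procr (5.94 and 4.42), and Mill2 had the largest ratio between the animals among those at a mean of 1 TPM or more, at 1.55 and 0.72.

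The animals were close in the members. None of the 11 members with a mean of at least 50 expected counts differed at least 2-fold with separate credibility intervals, where 2.21% of 11632 genes did. With so low a share over all genes, a count of 0 among 11 does not set the members apart. The log2 ratio of replicate 2 over replicate 1, on TPM + 0.1, ranged from -0.58 (H2-DMa) to 0.32 (H2-T23) over the 12 members at a mean of 0.5 TPM or more. Its median was 0.05 for these members and 0.01 for 11544 protein-coding genes past the same minimum. In the second table H2-DMa stood at 3.76 and 1.54 TPM, a larger ratio than in the gene table, on 64 and 40 estimated counts.

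Ratios of several other lists lay further from 0. All 9 interferon response genes at 0.5 TPM or more were higher in replicate 2, with a median log2 ratio of 0.46, and Gbp3 stood at 1.15 and 2.28 TPM; none of the 5 genes with enough counts passed the criteria. The 6 class I members past the same minimum had a median of 0.10, with 4 higher and 2 lower. The 10 macrophage markers, led by Lyz2 (20.9 and 19.1 TPM) and C1qb (9.83 and 5.55), were all lower in replicate 2, with a median of -0.65, a sum of 72.4 against 50.4 TPM and none called. The 3 detected class II alpha and beta chains summed to 7.95 and 8.32 TPM in the gene table but to 16.0 and 13.6 in the second table. The direction of their difference between the animals thus depended on the table in deposited TPM. Rescaled to the same total over nuclear protein-coding genes, the sums were nearly equal in the gene table, at 19.76 and 19.71. In the second table the rescaled sums were 23.6 and 20.5, lower in replicate 2. Whether the ratios of these groups differ was not tested. In such bulk RNA, fewer cells of a type and less RNA per cell cannot be told apart.

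Markers of other antigen-presenting cells were low. The 8 dendritic cell markers summed to 1.93 and 2.11 TPM, of which Zbtb46 gave 1.37 and 1.64, and Ccr7 was at 0. B cell markers were near 0 apart from Ighm (61.2 and 61.0 TPM): Cd79b stood at 0.09 and 0.12, and Ms4a1 and Pax5 at 0.01 or less in each animal. Of 10 T and NK cell markers, 6 had 0 counts in both libraries, among them Cd3e and Cd8a, and Ptprc gave 0.51 and 0.55 TPM. Endothelial markers summed to 87.5 and 97.3 TPM, led by Egfl7 and Cdh5. The Schwann cell marker Mbp fell by 2.18 on the log2 scale in replicate 2, and the fibroblast collagens Col1a1 and Col1a2 by 1.16 and 1.04. The part of these cell types in the members' levels was not tested.

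**Figure D3:**
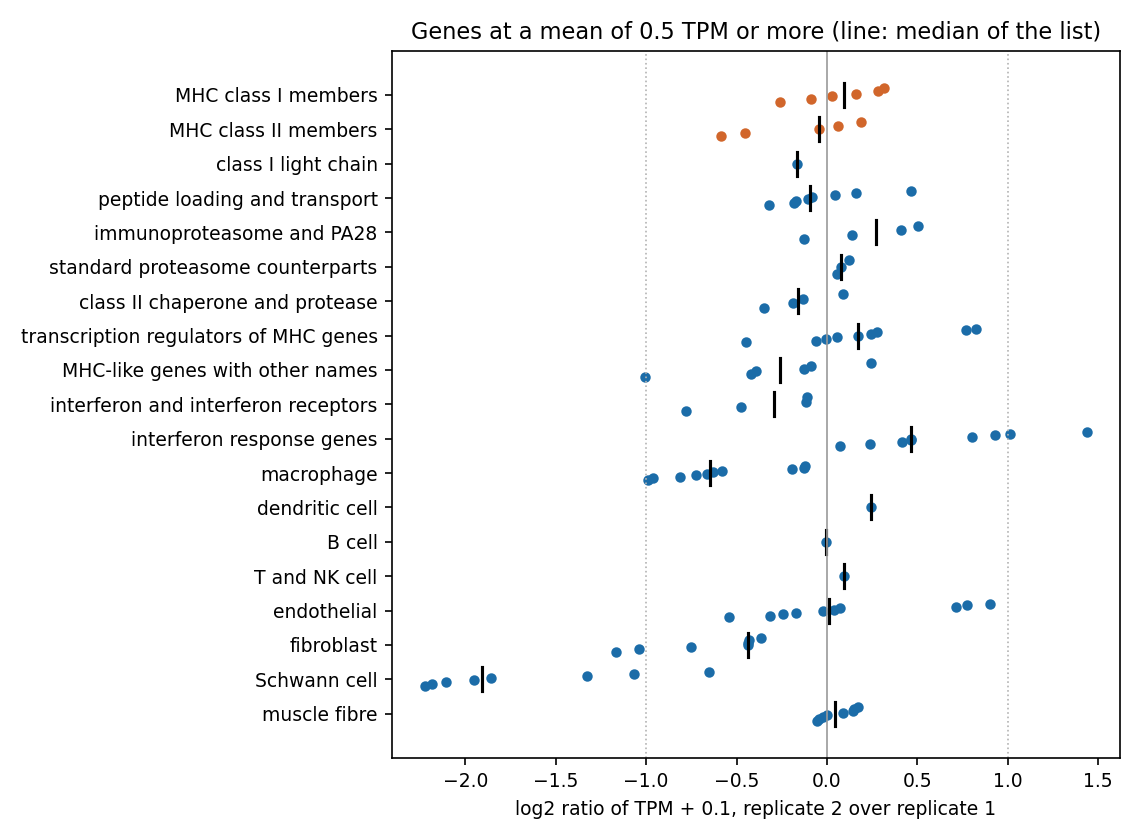
Log2 ratio of TPM + 0.1, replicate 2 over replicate 1, for each gene at a mean of 0.5 TPM or more, by list; each point is a gene, the black line is the median of the list and dotted lines mark 2-fold. Both member groups lie around 0, interferon response genes lie to the right, and macrophage, fibroblast and Schwann cell markers lie to the left.

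The members shared transcript sequence to very different degrees. Transcripts were cut into all overlapping words of 31 bases, and a word was called shared where another annotated gene also held it. Among the antigen-presenting members the share was highest in H2-T22, at 51.0% (mostly with the pseudogene H2-T10), and in H2-Q6, at 50.3%. It was 39.1% in H2-Q7, 38.4% in H2-Q4, 26.7% in H2-D1 and 22.8% in H2-K1. Class II chains shared little, with 0.833% in H2-Aa, 0.267% in H2-Ab1 and 0 in H2-DMa, except that H2-DMb1 shared 31.4% with H2-DMb2. At 100 bases, the length of a read in these libraries, the shares were 3.59% in H2-D1, 0.957% in H2-K1 and 12.0% in H2-Q7. The Q pair H2-Q6 and H2-Q7 was identical at 95.4% of coding bases, with a longest identical run of 265 bases.

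**Figure D4:**
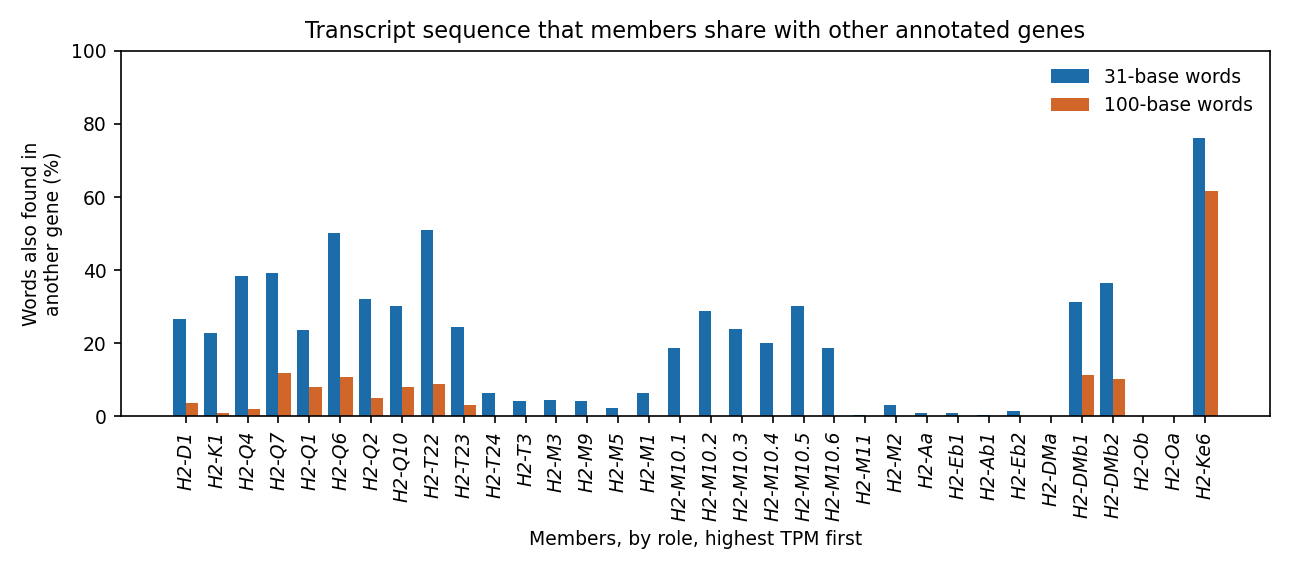
Percent of each member's transcript words, of 31 and of 100 bases, that also occur in another annotated gene; members stand in order of role and, within a role, of TPM. At 31 bases the Q region genes range from 23.7% to 50.3% and H2-T22 reaches 51.0%, class II genes other than H2-DMb1 and H2-DMb2 lie near 0, and H2-Ke6 is highest through the noncoding gene annotated over it.

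The 2 quantifications were compared after both were rescaled to the same total over nuclear protein-coding genes. H2-Q7 was the 1 of 13 members tested that was at least 2-fold higher in the second table in both libraries, against 1.08% of 11186 genes. It passed the minimum of 1 TPM only through the second table, with a mean of 1.10 there and 0.265 in the gene table. The minimum thus favoured the direction in which it was called. Its deposited values were 0.28 and 0.25 TPM in the gene table and 1.06 and 1.14 in the second, and its rescaled log2 ratios were 1.05 and 1.40. H2-Q7 had 13.7 and 15.8 expected counts in the gene table and 43.1 and 44.3 estimated counts in the second. None of the 13 was at least 2-fold lower in the second table, against 0.796% of genes.

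For the other members tested the tables were closer. Below the minimum of 1 TPM, and so not tested, H2-Q10 was higher in the second table, with rescaled log2 ratios of 1.30 and 1.21. H2-Q1 (-1.54 and -1.01) and H2-Q2 (-1.43 and -1.53), not tested either, were lower there. These genes rested on at most 19.5 counts in either table. The median log2 ratio was -0.04 for the 13 members and -0.14 for all genes tested. H2-D1 had rescaled log2 ratios of -0.32 and -0.29 and H2-K1 of -0.39 and -0.38. H2-Ab1 was higher in the second table, at 0.56 and 0.31. It shared few words with any gene, and the cause of its difference was not tested. H2-DMb1 gave -0.10 in replicate 1 and 1.15 in replicate 2, on at most 29.2 counts, and so was not the same in the 2 animals. Whether CAST alleles were placed differently by the 2 methods was not tested.

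**Figure D5:**
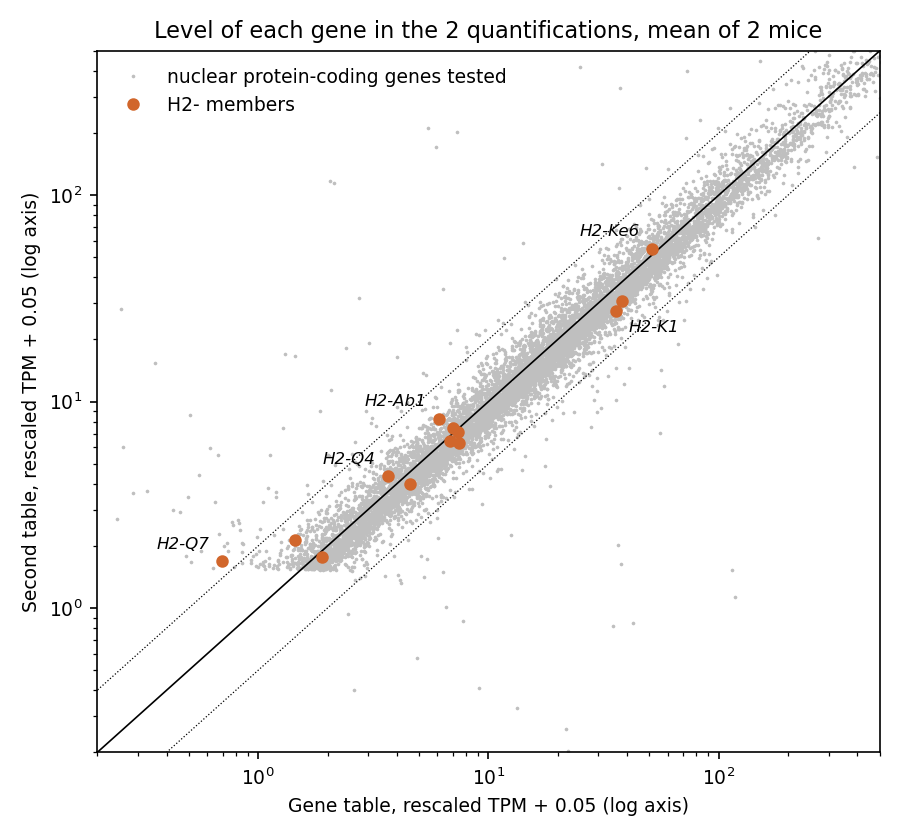
Level of each nuclear protein-coding gene tested (grey) and of the 13 members tested (orange) in the gene table and in the second transcript table, as rescaled TPM + 0.05 on log axes, mean of 2 mice; the solid line marks equal levels, dotted lines mark 2-fold, and genes outside the axes are not drawn. H2-Q7 lies above the upper dotted line and the other 12 members lie between the lines.

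Promoter windows of 250 bases before the RefSeq start (GRCm38.p6) were at hand for 31 of the 34 members; H2-Ab1, H2-Q1 and H2-T24 were not matched. Counted on both strands were 4 short patterns: GGGATTCCC (kappa B core of the class I enhancer A), CCAAT (Y box), AGNAAC (X box core) and TTTCNNTTT (interferon response core). None of these patterns contains another, but matches may overlap. The kappa B core was found in 4 of 31 windows, those of H2-D1, H2-K1, H2-Q6 and H2-Q7, and in 0.301% of all 32851 RefSeq windows. CCAAT was found in 27 of 31 (87.1%) and in 33.8% of all windows. The X box core was in 12 of 31 (38.7%) against 42.3%, and the interferon core in 4 of 31 (12.9%) against 9.37%. These are matches of exact letters, not measured binding. TTTCACTTC, which differs from the interferon core only in its last letter, was not a match. It stands in the 4 windows with the kappa B core, among others, and its share over all windows was not counted.

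The windows of 2 class I genes with the kappa B core, 1 at a high and 1 at a low level, and of 2 class II chains are shown with all matches in capitals. They cover chr17:34000348-34000597 (minus strand) for H2-K1, chr17:35438905-35439154 (plus) for H2-Q7, chr17:34287824-34288073 (minus) for H2-Aa and chr17:34305617-34305866 (plus) for H2-Eb1:
H2-K1: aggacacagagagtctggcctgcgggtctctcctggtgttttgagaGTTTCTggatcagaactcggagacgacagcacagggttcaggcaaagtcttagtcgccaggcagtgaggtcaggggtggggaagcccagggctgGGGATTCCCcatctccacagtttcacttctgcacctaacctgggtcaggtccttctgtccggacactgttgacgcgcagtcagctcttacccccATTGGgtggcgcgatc
H2-Q7: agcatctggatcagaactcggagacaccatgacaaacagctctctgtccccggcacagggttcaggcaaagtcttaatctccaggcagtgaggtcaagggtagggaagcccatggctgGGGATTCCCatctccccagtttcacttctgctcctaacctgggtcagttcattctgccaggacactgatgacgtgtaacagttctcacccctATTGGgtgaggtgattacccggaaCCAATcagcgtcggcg
H2-Aa: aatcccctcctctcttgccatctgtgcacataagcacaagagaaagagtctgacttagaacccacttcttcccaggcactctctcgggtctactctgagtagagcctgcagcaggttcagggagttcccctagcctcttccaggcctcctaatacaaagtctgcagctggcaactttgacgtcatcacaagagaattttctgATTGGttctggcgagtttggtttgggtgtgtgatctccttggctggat
H2-Eb1: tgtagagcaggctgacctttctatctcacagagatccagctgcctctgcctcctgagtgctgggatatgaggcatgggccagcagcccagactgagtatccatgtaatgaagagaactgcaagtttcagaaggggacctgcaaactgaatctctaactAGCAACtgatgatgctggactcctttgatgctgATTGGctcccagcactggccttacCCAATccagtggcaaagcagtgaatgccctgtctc
The kappa B core begins 110 bases before the start in H2-K1 and 132 before it in H2-Q7, genes whose TPM lay far apart. The H2-D1 window, not shown, lies inside exon 1 of H2-D1-202, since RefSeq places the start 364 bases from that of GENCODE. The 2 starts lay further apart in H2-DMa (3291 bases, no pattern found) and H2-DMb2 (1942 bases), whose windows are counted among the 31. The H2-Aa window holds CCAAT on its reverse strand and none of the other 3 patterns, and the H2-Eb1 window holds the X box core and CCAAT on both strands.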

How the data were processed

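Total RNA-seq libraries of 2 mice were analysed, each with 1 gene table and 2 transcript tables. The notes deposited beside the files say that the gene and first transcript tables came from transcriptome alignments (mm10, GENCODE M21) and the second from reads and an index; no aligner or quantifier is named there. The authors deposited expected counts (estimated reads, not whole), TPM, FPKM (used as an alternative only) and the percent of each gene held by each transcript, which was recomputed here from TPM. The deposited credibility intervals of TPM have no stated level and need not hold the TPM: H2-Ab1 in replicate 1 had 2.33 TPM and an interval from 2.37 to 3.93.

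Members and lists were chosen with earlier results of these data known. Symbols and types came from the annotation, matched by identifier for all 55536 Ensembl genes, and all 134 list symbols were found. A gene differed between animals at a mean expected count of at least 50, a 2-fold ratio of TPM + 0.1 and separate intervals. Between quantifications it differed at 2-fold in both libraries, among genes at a mean of 1 TPM or more in either table. The between-animal criteria were tried on simulated libraries with counting noise only and with larger changes, set in genes of higher counts. That trial does not cover 2-fold changes near 50 counts or the spread between these libraries. Named were all members at a mean of 1 TPM or more in either table and the highest and lowest of each role; of each pathway list the 3 highest and, at a mean of 1 TPM or more, the largest ratio of TPM + 0.1 between animals; of each marker list the 2 highest, of which 1 is not reported here. The expected counts of 16562 genes gave a chi-square of 31.9 per degree of freedom, so the libraries differ beyond sampling noise. Counts were summed and compared with Python 3.11.15, pandas 2.3.3, numpy 2.4.6 and scipy 1.17.1. Alternatives were other units, tables, filters and pseudocounts, and leaving out each animal; those for H2-K1 over H2-D1 were added after seeing the data.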

Additional observations from a re-analysis of the deposited data

How the results depend on the processing

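No paired analysis was possible because there is 1 group. The summed class I TPM of 40.0 became 54.6 in the second table, 33.4 in FPKM, 97.1 when rescaled over nuclear protein-coding genes and 42.9 as the posterior mean; class II, at 10.8, became 19.1, 9.02, 26.2 and 12.9 in the same order. These alternatives change the scale itself. Class I over class II, 3.71, became 2.87 in the second table and 3.32 as the posterior mean, and the classical share of 75.8% became 71.4% and 73.7%. Without replicate 1 or 2, class I ranged from 39.0 to 40.9 TPM, class II from 10.5 to 11.1, their ratio from 3.70 to 3.72 and the classical share from 74.7% to 76.9%. H2-K1 over H2-D1, 0.937, became 0.486 over protein-coding transcripts of the first tables, 0.509 without H2-K1-215 and 0.484 in expected counts, all chosen after seeing the data. By the second table and without intervals, 1 member (H2-DMa) differed between the animals in place of 0; the cause was not tested. The count of members that differ between the quantifications, 1, became 0 with a pseudocount of 1 and 0 at a minimum of 5 TPM, and ranged from 1 to 2 with a replicate left out, H2-DMb1 joining H2-Q7 in replicate 2 alone. Members at 1 TPM or more in both libraries numbered 10 to 12. Depth limits the Q and M region genes, H2-DMb1, H2-DMb2 and H2-Ob, which rest on fewer than 50 counts each apart from H2-Q4. H2-DMa (63 and 43 expected counts) and H2-T24 (45 and 56) fell below 50 in 1 library each.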

Other observations

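Of the 11 H2- symbols of other gene types, H2-T-ps and H2-Ea-ps were the highest in the gene table. H2-Ea-ps is annotated as a polymorphic pseudogene, since C57BL/6 carries a deletion in the promoter of this class II alpha chain that other strains lack. It had 30 and 27 expected counts, or 1.01 and 0.91 TPM, and shared no 31-base word with another gene. The first transcript tables gave all of it to the protein-coding form H2-Ea-ps-202, and the second table gave that form 77.1% of its TPM in replicate 1 and 100% in replicate 2. Which parental allele these reads came from was not tested. H2-T-ps stood at 1.19 TPM in each animal and shared 48.4% of its words, mostly with H2-T23. Gm11127, a protein-coding gene of the complex without an H2- symbol, was looked up because members share words with it. It stood at 0.58 and 0.85 TPM in the gene table and at 1.65 and 1.66 in the second.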
